A study of Drosophila melanogaster with 10 samples.

Results

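The probes described here are 38 of the 15744 on the array whose deposited ratio between the sexes was steadily negative. They were chosen by the measured ratios themselves. A probe had to be below 0 on each of 5 arrays (Berlin replicates 2, 3, 4 and 5 and Canton S replicate 3) with a plain mean over them of -0.5 or lower on the log2 scale. A value on all 5 of these arrays was present for 3324 probes, 121 of those were below 0 on each, and 38 (1.14% of the 3324) also met the mean. Ratios on these 5 arrays are a description and carry no test. The other 5 arrays (Berlin replicate 1 and Canton S replicates 1, 2, 4 and 5) took no part in the choice, and every test below rests on them.

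Each array compared RNA from female and male genital imaginal discs of a single wild-type strain of Drosophila melanogaster, with 5 arrays of Berlin and 5 of Canton S. The discs came from larvae at the end of the third instar, dissected after the gut had cleared, and each RNA sample was a pool of discs. The male sample was labelled with Cy5 on Berlin replicates 4 and 5 and Canton S replicates 1, 4 and 5, and with Cy3 on the other 5 arrays. The sample descriptions word the comparison as female to male and the design text as male versus female, so the direction of the ratio is not settled and signs are given as deposited. If the ratio is female over male, a negative value means more RNA in male discs. None of the probe identifiers matched the 17872 genes of the reference table (0 matches), so probes have no gene names or roles here, their sequences were not used, and the tissue could not be checked against marker genes.

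As background, the genital disc of the fly is a compound disc that holds a female primordium, a male primordium and an anal primordium in larvae of either sex. Only the genital primordium that matches the sex of the larva grows and differentiates fully, under control of the sex-specific isoforms of the transcription factor Doublesex. The disc therefore differs between the sexes in which cells have grown as well as in what each cell transcribes. In RNA from whole discs, fewer cells of a type and less RNA per cell cannot be told apart.

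The 5 arrays of the rule had the narrower distributions. The median absolute deviation of all log2 ratios, scaled to match the SD of a normal distribution, lay between 0.37 and 0.88 on them. It lay between 1.22 and 2.17 on the other 5, which are called the wide arrays below. Between 2848 and 8724 probes had a value on an array. Over all probes with values on both arrays, the log2 ratios of Canton S replicate 5 (male in Cy5) had a Pearson correlation of -0.61 with those of Berlin replicate 1 (male in Cy3, 4578 probes) and of 0.78 with those of Canton S replicate 1 (male in Cy5, 5501 probes). Canton S replicate 4, also with the male sample in Cy5, had a correlation of -0.11 with Canton S replicate 5 (2804 probes) and of 0.47 with Canton S replicate 2 (male in Cy3, 2790 probes). It thus stood apart from the other 2 wide arrays of its dye orientation. The main counts below are also given without it.

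Most members lay close to the threshold, and few were far below 0. The mean log2 ratio over the arrays of the rule had a median of -0.70 over the 38 members, a 1.62-fold difference if the logarithm is to base 2, and ran from -2.43 (5.39-fold) to -0.50 (1.42-fold). A mean of -0.75 or lower was reached by 15 members, -1 or lower by 5, -1.5 or lower by 3 and -2 or lower by 2.

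DAC037A11 was the lowest, with log2 ratios of -2.31, -2.46, -2.22 and -2.23 on Berlin replicates 2 to 5 and -2.94 on Canton S replicate 3. DAC010M17 followed with -1.56, -2.10, -1.80, -1.93 and -2.65 on the same arrays, a mean of -2.01 ± 0.41 (SD, n = 5). DAC037J23 had -0.94, -1.55, -2.28, -2.06 and -0.84, a mean of -1.53 ± 0.65 (SD, n = 5). No other member averaged below -1.3. DAC037A11 kept within 0.72 log2 units over the 5 arrays, while DAC037J23 was lower on the 2 arrays with male RNA in Cy5 than on the 3 with it in Cy3.

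The next members by mean were DAC015B07 at -1.29 ± 0.45, DAC019J06 at -1.10 ± 0.37, DAC033F19 at -0.99 ± 0.35, DAC006L02 at -0.97 ± 0.69, DAC024G08 at -0.97 ± 0.91, DAC040K21 at -0.94 ± 0.49 and DAC014F06 at -0.85 ± 0.54 (log2 ratios, SD, n = 5 each). Over all 38 members the SD between the 5 arrays had a median of 0.41, against 0.42 for the other 3286 probes measured on all 5. DAC009P04, DAC019O06 and DAC038K24 varied least, with ranges of 0.54, 0.58 and 0.59. DAC024G08, DAC019D24 and DAC006L02 varied most, with ranges of 1.90, 1.57 and 1.51, and their values nearest to 0 were -0.06, -0.02 and -0.11. DAC024G08 stood at -0.89, -0.09, -0.06 and -1.83 on Berlin replicates 2 to 5 and -1.96 on Canton S replicate 3 and was thus close to 0 on 2 of the 5.

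Just inside the threshold were DAC024D16, DAC030C15 and DAC031M17, with means of -0.50, -0.50 and -0.51. Just outside it were DAC017B21, DAC041G03 and DAC040F21, which were also below 0 on all 5 arrays and had means of -0.49, -0.49 and -0.48. The 2 sets of neighbours overlap in their values on single arrays.

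**Figure D1:**
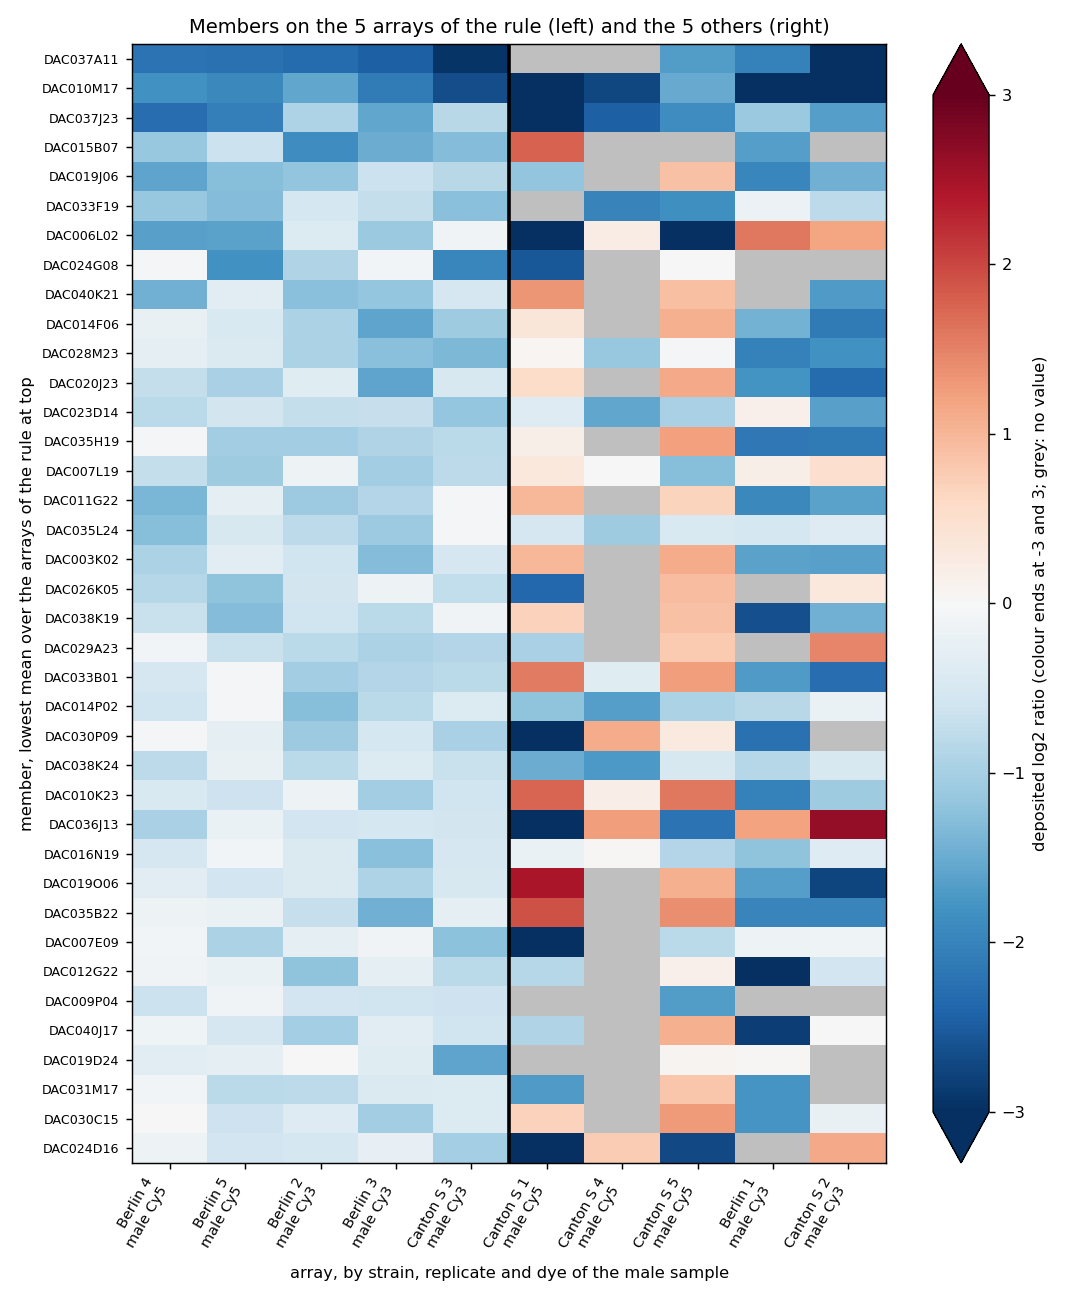
Deposited log2 ratio (colour, ending at -3 and 3, grey where there is no value) of the 38 members (rows, lowest mean over the arrays of the rule at the top) on the 10 arrays (columns, with the dye of the male sample). The 5 arrays of the rule, left of the black line, are blue throughout by the choice of the members, and on the 5 wide arrays to its right the 3 top rows are blue wherever measured while many others hold red cells.

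Within single arrays the members were not always the most negative probes. Of the 38, 22, 21, 19 and 15 lay in the lowest 10% of all probes on Berlin replicates 2, 3, 4 and 5, and 5 (13.2%) did so on Canton S replicate 3. Of the other 3286 probes measured on all 5 arrays of the rule, 6.9%, 7.4%, 5.8% and 6.4% lay there on the Berlin arrays. On Canton S replicate 3 it was 0.88% of them. The members' median rank was the 4.94, 9.06, 10.3 and 13.1 percentile of all measured probes on the Berlin arrays and the 21.2 percentile on Canton S replicate 3. These ranks use the values that chose the members and are given as a description.

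On the wide arrays the members were measured in 151 of 190 possible cells, and 96 of the 151 values (63.6%) were below 0, against 47.6% of the values of the other probes measured on all 5 arrays of the rule. The share was highest on the 2 arrays with male RNA in Cy3. With the male sample in Cy5, 19 of 34 members (55.9%) were below 0 on Canton S replicate 1, 9 of 16 (56.2%) on Canton S replicate 4 and 16 of 37 (43.2%) on Canton S replicate 5. With the male sample in Cy3, 27 of 32 (84.4%) were below 0 on Berlin replicate 1 and 25 of 32 (78.1%) on Canton S replicate 2. The other probes had 41.98%, 52.3%, 41.6%, 48.8% and 54.9% below 0 on these arrays in the same order. On Canton S replicates 4 and 5 the members' share lay near that of the other probes.

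The members' median log2 ratio was -0.45, -0.71 and 0.15 on Canton S replicates 1, 4 and 5 and -1.68 and -1.25 on Berlin replicate 1 and Canton S replicate 2. The members' median was thus above 0 on Canton S replicate 5, where the median of all probes was 0.56.

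**Figure D2:**
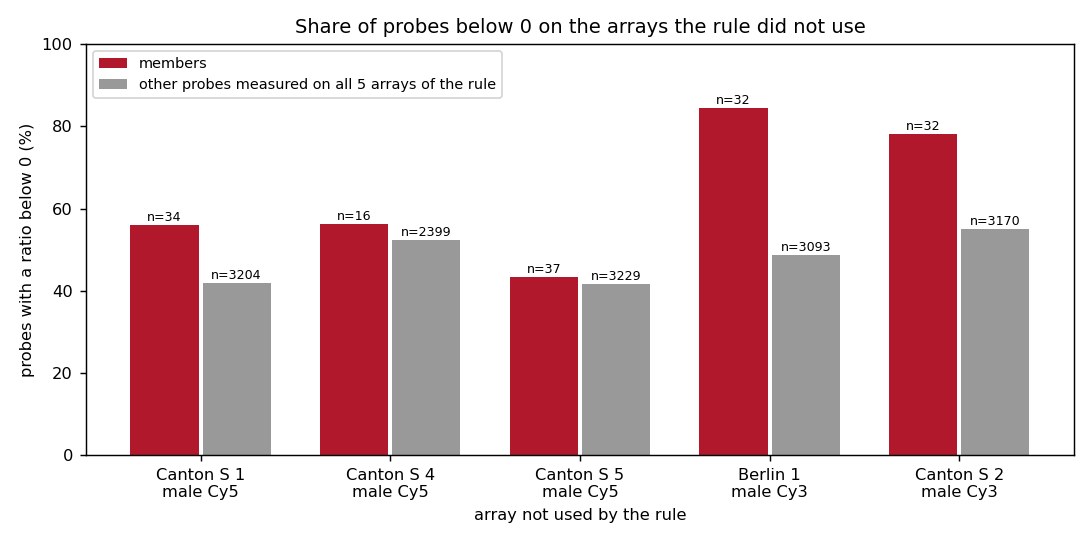
Percent of probes with a log2 ratio below 0 on each wide array (n above each bar is the number measured there), for the members (red) and for the other probes measured on all 5 arrays of the rule (grey). The members' bars stand at 84.4% and 78.1% on the 2 arrays with the male sample in Cy3 and between 43.2% and 56.2% on the 3 with it in Cy5.

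The mean ratio on the wide arrays was tested with limma over all probes measured on at least 3 of them and in both dye orientations, with the dye orientation as a term, so that the estimate lies midway between the orientations. This tested 5280 probes, 34 of the 38 members among them. DAC009P04, DAC015B07, DAC019D24 and DAC024G08 had too few values. A probe with a missing array was fitted on the arrays that measured it. The estimate was below 0 for 31 of the 34 members, with a median of -0.62, and for 67.6% of all tested probes, with a median of -0.16.

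After Benjamini-Hochberg adjustment over the 5280 probes, 2 members passed at an adjusted p below 0.05 on the negative side, where 5 of all tested probes did (0.0947%). At an unadjusted p below 0.05, 5 of the 34 members lay on the negative side, against 60 of the 5280 probes (1.14%). Among the 3221 other tested probes that had values on all 5 arrays of the rule, 0 passed adjustment in limma on the negative side and 8 had such an unadjusted p (0.248%). No member lay on the positive side at either threshold. With 5 arrays the precision was low, and the 95% interval of a member's estimate had a median half-width of 1.10 log2 units.

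DAC010M17 was the member farthest below 0 on the wide arrays. On the wide arrays its log2 ratio was -3.11, -2.73 and -1.52 on Canton S replicates 1, 4 and 5 and -3.28 and -4.38 on Berlin replicate 1 and Canton S replicate 2. Every array was lower than -1.5, and the estimate was -3.14 ± 0.46 (SE, 8.83-fold, limma adjusted p = 0.00561). Leaving out Berlin replicate 1 or Canton S replicate 2 kept the size, at -3.42 and -2.87, but took the limma adjusted p to 0.0619 and 0.135, and it was 0.0571 without the dye term and 0.121 with a strain term. Over the alternative fits of the mean it lay between 6.81e-09, without Canton S replicate 4, and 0.135.

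DAC037J23 was the other member that passed. Its ratios were -3.49, -2.46 and -1.86 on Canton S replicates 1, 4 and 5 and -1.11 and -1.65 on Berlin replicate 1 and Canton S replicate 2, all below -1. The estimate was -1.99 ± 0.44 (SE, 3.98-fold, limma adjusted p = 0.0297). The call was the less stable of the 2: it was lost without Berlin replicate 1, Canton S replicate 1, 2 or 5, with limma adjusted p of 0.156, 0.215, 0.375 and 0.0871. The estimates there were -2.13, -1.77, -1.86 and -2.18, close in size to the one from all 5 arrays. The call was also lost without the dye term and with only fully measured probes, at limma adjusted p of 0.176 and 0.0687. It was lost with a strain term too, where the estimate was -1.86. Without Canton S replicate 4 the limma adjusted p was 0.000221, the smallest over the alternatives.

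DAC037A11, the lowest on the arrays of the rule, had a value on only 3 wide arrays, at -1.68 on Canton S replicate 5, -2.03 on Berlin replicate 1 and -5.07 on Canton S replicate 2. It was below -1.6 on each, with an estimate of -2.61 ± 0.76 (SE, 6.11-fold), and did not pass in limma (adjusted p = 0.153). Over the alternatives its limma adjusted p lay between 0.000115, without Canton S replicate 4 (on which it had no value), and 0.423, with arrays scaled to one spread. The other 2 members with an unadjusted p below 0.05 were DAC028M23 at -1.15 ± 0.43 (SE) and DAC033F19 at -1.20 ± 0.48 (SE), with limma adjusted p of 0.335 and 0.439. DAC028M23 was named after its values were seen. Without Canton S replicate 4, 5 members passed on the negative side, where 113 of 5238 probes did (2.16%). DAC037A11 kept its estimate in that fit, while its SE fell from 0.76 to 0.56. Named members measured on equally many arrays had nearly equal SEs there. The p-values given without that array thus rest mostly on a spread shared across probes, not on each probe's own.

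Of the 34 tested members, 8 (23.5%) were below 0 on every wide array that measured them, against 102 of the 5280 tested probes (1.93%) and 23 of the 3221 others with values on all 5 arrays of the rule (0.714%). Without Canton S replicate 4 it was 9 of 34 (26.5%), against 127 of 5238 (2.42%), in an alternative chosen after seeing the data. Among the 13 members measured on all 5 wide arrays, 5 (38.5%) were below 0 on each. The same held for 18 of the 2480 tested probes measured on all 5 (0.726%). The 5 members were DAC010M17, DAC037J23, DAC038K24, DAC014P02 and DAC035L24, and each was therefore below 0 on all 10 arrays. DAC038K24 had -1.499, -1.72 and -0.49 on Canton S replicates 1, 4 and 5 and -0.86 and -0.47 on Berlin replicate 1 and Canton S replicate 2. DAC014P02 had -1.21, -1.65, -0.96, -0.83 and -0.20, and DAC035L24 had -0.51, -1.06, -0.45, -0.53 and -0.39 on these arrays in the same order.

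All 3 were modest in size. Their estimates were -0.95 ± 0.43, -0.90 ± 0.42 and -0.57 ± 0.41 (SE), with limma adjusted p of 0.637, 0.699 and 0.999, so none passed. DAC035L24 varied the least over the wide arrays of the 13, with an SD of 0.27 (n = 5).

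**Figure D3:**
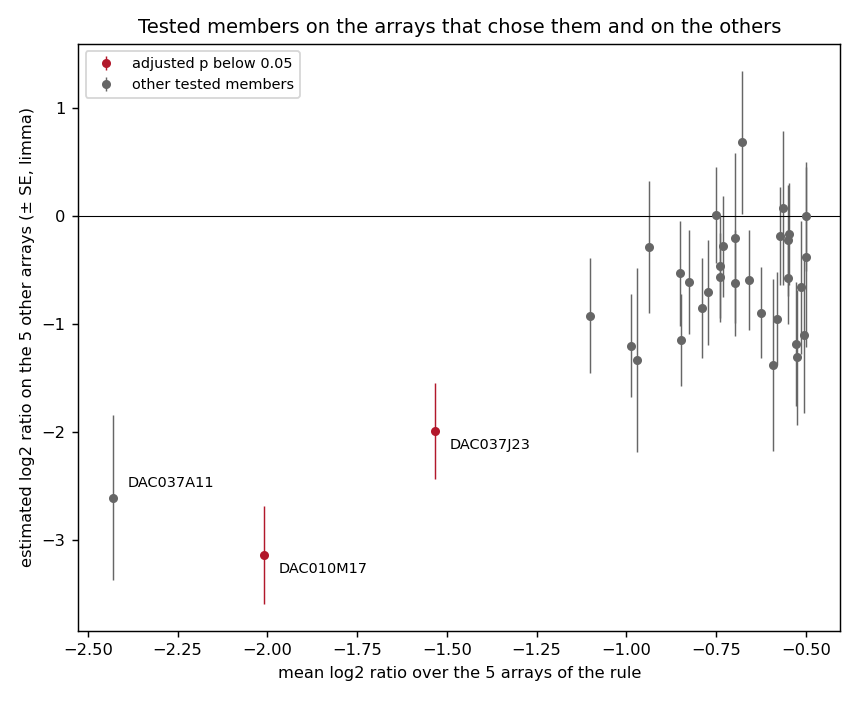
Mean log2 ratio over the 5 arrays of the rule (horizontal) against the limma estimate on the 5 wide arrays (vertical, bars are ± SE) for the 34 tested members, with the 2 at an adjusted p below 0.05 in red. DAC037A11, DAC010M17 and DAC037J23 stand at the lower left, and the other 31 lie between -1.38 and 0.68 on the vertical axis with no steady order.

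The order of the members carried over to the wide arrays only through the lowest 3. Across the 34 tested members, the mean over the arrays of the rule and the estimate on the wide arrays were correlated at 0.75 (Pearson) and 0.38 (Spearman). Without DAC037A11, DAC010M17 and DAC037J23 they were 0.19 and 0.18 (31 members). These are correlations across probes, which share arrays and are not independent replicates, and the choice of members cuts off the range of the first measure.

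Many members, like many other probes, had opposite signs in the 2 dye orientations on the wide arrays. On every wide array that measured them, 12 of the 38 were above 0 with male RNA in Cy5 and below 0 with it in Cy3. Of the tested members these were 11 of 34 (32.4%), near the 27.2% of all tested probes. The reverse pattern was met by 0 of the 34 members, against 14.4% of all tested probes. Without Canton S replicate 4 it was met by 3 members (8.82%), against 26.8%, while the first pattern was met by 12 (35.3%), against 35.5%. Of the 28 tested members measured on both Berlin replicate 1 and Canton S replicate 2, 23 (82.1%) were below 0 on both, against 44.4% of all tested probes measured on both. Of these 23 members 13 (56.5%) were above 0 on Canton S replicate 5, against 92.8% of the tested probes that were below 0 on the same 2 arrays.

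DAC019O06 showed the widest split of this kind. Its log2 ratios were 2.44 and 1.07 on Canton S replicates 1 and 5, against -1.66 and -2.76 on Berlin replicate 1 and Canton S replicate 2, and had no value on Canton S replicate 4. Its mean estimate was -0.22 ± 0.51 (SE), while its dye term, male in Cy5 minus male in Cy3, was 3.97 ± 1.03 (SE). On the arrays of the rule the same probe was among the steadiest, from -0.92 to -0.34. DAC010K23 was at 1.76, 0.21 and 1.57 on Canton S replicates 1, 4 and 5, against -2.03 and -1.07 on Berlin replicate 1 and Canton S replicate 2. DAC033B01 was at 1.55, -0.37 and 1.25, against -1.71 and -2.28, so that Canton S replicate 4 kept it from a full split.

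A smaller number ran the other way. DAC006L02 had -6.18, 0.22 and -6.18 on Canton S replicates 1, 4 and 5, against 1.58 and 1.18 on Berlin replicate 1 and Canton S replicate 2. DAC036J13 was at -4.33, 1.25 and -2.22, against 1.21 and 2.63. In both, the sign on Canton S replicate 4 was that of the arrays of opposite dye orientation. Their dye terms were -5.43 ± 1.71 and -3.69 ± 1.43 (SE), and without Canton S replicate 4 they were -7.57 ± 0.89 and -5.199 ± 0.90 (SE). The mean estimate of DAC006L02 was -1.33 ± 0.85 (SE, limma adjusted p = 0.999). It passed on the negative side without Canton S replicate 4, at -2.40 ± 0.45 (SE, limma adjusted p = 6.19e-06), and with array weights, at -2.22 (limma adjusted p = 0.000237).

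The dye term was above 0 for 21 of the 34 tested members (61.8%), against 51.4% of all tested probes, with a median of 1.52 against 0.13. In limma 0 of the 34 members passed adjustment for the dye term, where 1 of the 5280 probes did (0.0189%), and 12 members had an unadjusted p below 0.05, 10 above 0 and 2 below. The share of such probes was 39.9% over all tested probes (2108 of 5280), so 12 of 34 (35.3%) lies near the background. This count depended on Canton S replicate 4. Without it limma called 15 of the 34 members for the dye term, beside 2864 of 5238 probes (54.7%). If the deposited values were Cy5 over Cy3 and had not been turned for the dye swap, the dye term and not the mean would hold the difference between the sexes. As the full difference between the orientations, it would then be 2 times the log2 ratio between the sexes.

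On the narrow Berlin arrays the same contrast was small. These arrays chose the members, and a value below 0 was required on each, which limits how large the contrast could be. The mean of Berlin replicates 4 and 5 (male in Cy5) minus that of replicates 2 and 3 (male in Cy3) had a median of 0.16 over the 38 members, from -0.93 to 0.94, and was above 0 for 26. Over the 34 tested members its correlation with the dye term on the wide arrays was 0.54 (Pearson) and 0.50 (Spearman). The correlation is across probes and is given as a description, with no values over all probes beside it.

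**Figure D4:**
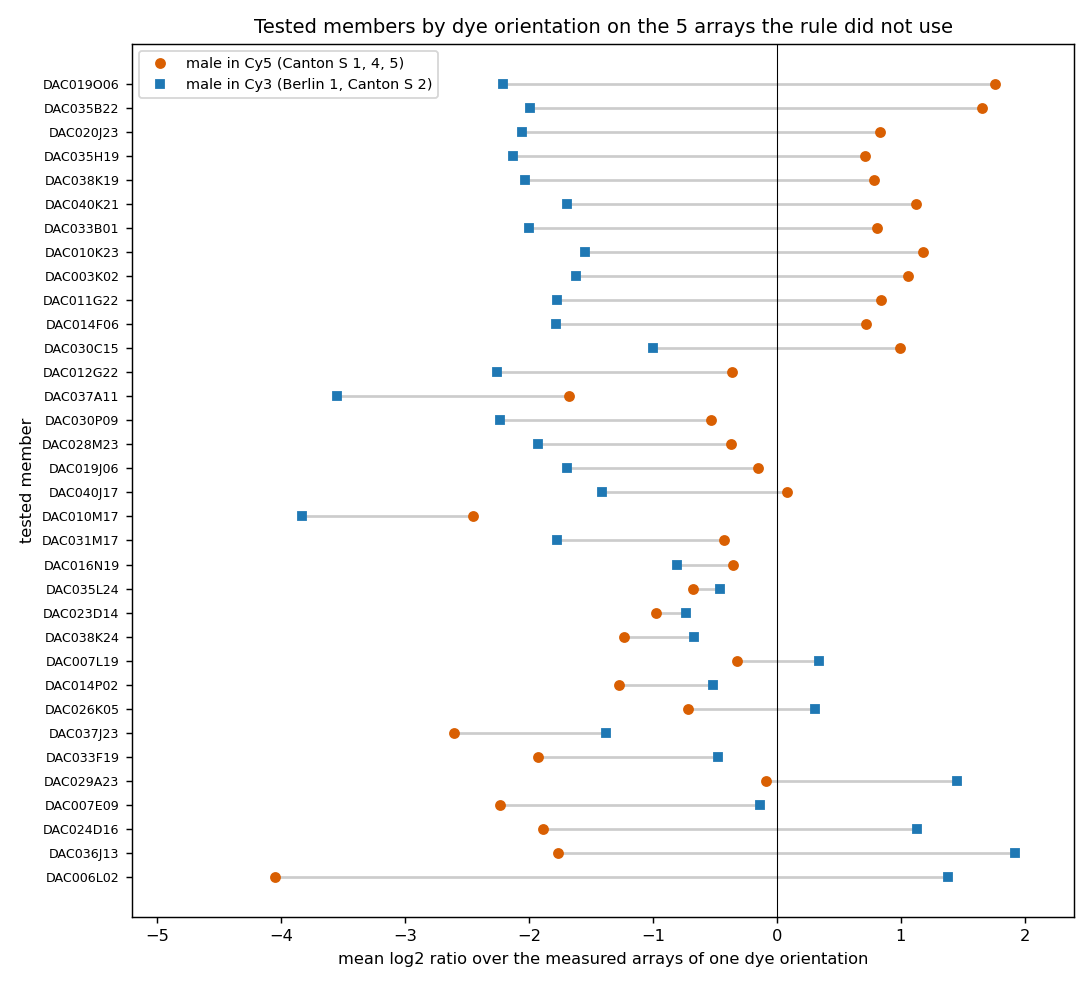
Mean log2 ratio on the wide arrays with the male sample in Cy5 (orange circles, Canton S replicates 1, 4 and 5) and in Cy3 (blue squares, Berlin replicate 1 and Canton S replicate 2) for the 34 tested members, ordered by the difference. The top 12 have circles above 0 and squares below 0, DAC010M17 and DAC037J23 have both well below 0, and DAC006L02 at the bottom has the circle at -4.05 and the square at 1.38.

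Among the members measured on all 5 wide arrays, those with the highest values had no steady sign there. Of these 13, DAC010K23, DAC007L19, DAC036J13 and DAC033B01 had the highest plain means, at 0.09, -0.06, -0.29 and -0.31. DAC029A23 and DAC040K21, measured on 3 wide arrays each, had higher plain means of 0.42 and 0.18, with both signs. DAC019D24 had values on only 2 wide arrays and was above 0 on each, at 0.03 on Berlin replicate 1 and 0.07 on Canton S replicate 5. DAC007L19 was at 0.31, 0.01 and -1.28 on Canton S replicates 1, 4 and 5, against 0.17 and 0.51 on Berlin replicate 1 and Canton S replicate 2. Its estimate was 0.01 ± 0.44 (SE). The 95% interval of that estimate ran between -0.98 and 1.00.

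The strains contributed unequally to the choice, with 4 of 5 Berlin arrays against 1 of 5 Canton S arrays, so their difference was not tested. Over all 10 arrays the members' mean log2 ratio had a median of -0.84 in Berlin and -0.48 in Canton S, and the Berlin mean was the lower for 24 of the 38. Both members that passed had the lower mean in Canton S. The wide arrays, on which they passed, were 4 of the 5 Canton S arrays and 1 of the 5 Berlin arrays. Strain and array spread therefore cannot be told apart here. DAC010M17 averaged -2.13 ± 0.67 in Berlin and -2.88 ± 1.03 in Canton S (SD, n = 5 each), and DAC037J23 averaged -1.59 ± 0.58 in Berlin and -2.06 ± 0.99 in Canton S (SD, n = 5 each). For both the strains' ranges overlapped.

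The rule was also applied with 1 of its arrays left out, and the probes found were read on that array. Without Berlin replicate 2, 3 or 5 it found 49, 41 and 54 probes, and 34 of 46 (73.9%), 33 of 41 (80.5%) and 39 of 48 (81.2%) of those measured were below 0 on the array left out. The background shares on these arrays, over the 3324 probes measured on all 5, were 48.5%, 50.4% and 46.2%.

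Berlin replicate 4 and Canton S replicate 3 behaved differently. Without Berlin replicate 4 the rule found 148 probes, of which 49 of 114 (43.0%) were below 0 on it, against 49.0% of all. Without Canton S replicate 3 it found 123, of which 37 of 115 (32.2%) were below 0 on it, against 27.9% of all. The probes found with the other 4 arrays thus lay near the background on these 2. Berlin replicate 4 carried the male sample in Cy5, and Canton S replicate 3 was the Canton S array of the rule. Berlin replicate 5 also carried the male sample in Cy5, and its share was 81.2%, against 46.2% of all. Whether dye or strain has a part in this was not tested.

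**Figure D5:**
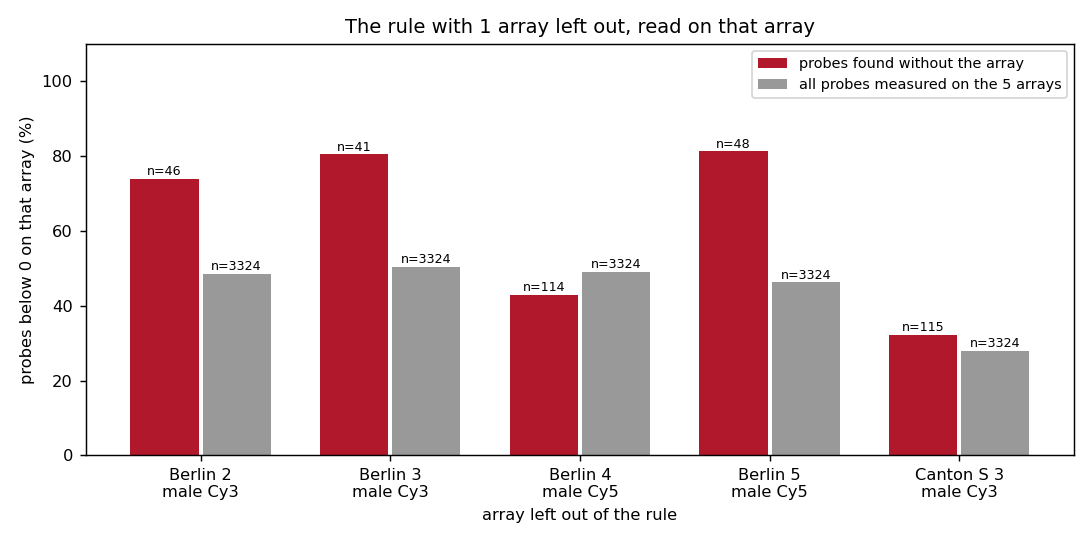
Percent of probes below 0 on an array of the rule when that array was left out of the choice (red, n is the number found and measured there), beside all 3324 probes measured on the 5 arrays (grey). The red bars reach 73.9% to 81.2% on Berlin replicates 2, 3 and 5, and stand at 43.0% on Berlin replicate 4 and 32.2% on Canton S replicate 3, near the grey bars.

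The same rule with signs turned found more probes, and farther from 0. A ratio above 0 on each of the 5 arrays with a mean of 0.5 or higher was met by 343 probes (10.3% of the 3324), with a median mean of 2.15 against -0.70 for the members. On the wide arrays 221 of the 320 tested probes of that set (69.1%) were above 0 wherever measured, where 7.25% of all tested probes were. Of the members 8 of 34 (23.5%) were below 0 wherever measured, where 1.93% of all tested probes were. With 1 array of the rule left out, between 88.0% and 98.8% of the positive probes found stayed above 0 on it, where between 49.6% and 72.1% of all probes were above 0. The sets differ in size of ratio, so these shares do not compare sides at equal size.

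The members came from many source plates, as read from the plate, row and column in their identifiers. They came from 25 of the 41 printing plates, with at most 3 on a plate (plates 19 and 35), and from 15 plate rows and 19 plate columns. Positions on the array itself were not examined, and no background for these counts was computed. DAC037A11 and DAC037J23 share plate 37.

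Some control spots had ratios like those of the lowest members. DACControlC05 had a value on all 10 arrays, from -3.61 to -1.23, a span close to that of DAC010M17, from -4.38 to -1.52. DACControlB05 lay between -3.42 and -1.93 on 7 arrays and DACControlD05 between -3.60 and -1.16 on 8. The sources used here do not name the content of these spots, and their relation to the members was not tested.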

How the data were processed

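The deposited table holds the authors' log2 ratio of the 2 channels for each probe and array, 1 value per cell with replicates not pooled, and empty cells. The submitters' processing notes name limma without version or role. Background correction, normalization, centring, spot filter, direction and log base are not stated in labels or headers, and base 2 follows limma's convention. Values were used as deposited, and 32 control rows were left out of the fits.

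The members and lists were chosen with earlier results of these data known. Linear models (lmFit and eBayes of limma 3.58.1, R 4.3.3) were run on the 5 arrays outside the rule, for all probes with at least 3 values and both dye orientations, with dye orientation as a term. P-values are two-sided and adjusted by Benjamini-Hochberg over 5280 probes, with calls at an adjusted p below 0.05. The fit was tested on simulated data with independent errors, no dye effect and the same spread on every array. That check does not cover the dye differences and unequal spread of the real arrays. Members named are the 10 lowest on the arrays of the rule, up to 8 below 0 on all 5 wide arrays, the 4 highest there, those at the threshold, those called, and those with the smallest and largest range. Replicates are separate biological samples according to the design text. The number of arrays limits the precision, and channel intensities were not used here. Without gene names, no gene list was examined. Figures were drawn with matplotlib 3.10.9.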

Additional observations from a re-analysis of the deposited data

Results flagged for a closer look

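Over 42 groups of arrays of one strain screened for an array far from the others, 2 stood out. Chance flags about 1 in 20 such groups. The members' median log2 ratio was -1.68 on Berlin replicate 1, while the 4 Berlin arrays of the rule gave -0.90 to -0.58. Berlin replicate 1 took no part in the choice of members and has the widest ratios of its strain. DAC009P04 stood at -0.12 on Berlin replicate 5, while Berlin replicates 2, 3 and 4 gave -0.65 to -0.57.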

How the results depend on the processing

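The number of members passing on the negative side in limma, 2 of 34 beside 5 of all 5280 tested probes, was 2 with arrays centred (beside 7) or scaled (beside 4), 4 with array weights (beside 47), and 1 with only fully measured probes (1 of 13 members, beside 1 of 2480) or at an adjusted p below 0.01. It was 0 without the dye term (beside 1) and with a strain term (27 members, beside 0), with 3 members each at an unadjusted p below 0.05. Read as Cy5 over Cy3 it was 0 on either side, with 2 members below 0 and 10 above 0 at an unadjusted p below 0.05. Leaving out single arrays gave 0 to 5, with 0 without Berlin replicate 1 or Canton S replicate 2 (beside 0 each, with 2 and 3 members at an unadjusted p below 0.05) and 5 without Canton S replicate 4 (beside 113 of 5238). For the dye term the count of 0 became 1 with centring (2.94% of the members, beside 6.14% of all tested probes) and 14 with array weights (41.2%, beside 52.6%), and was 0 to 15 without single arrays (44.1% at most, beside 54.7%). The median estimate of the mean ratio stayed below 0 in each fit of the mean, from -0.78 to -0.50 without single arrays. The median dye term, on which the Cy5 over Cy3 reading rests, was 1.52. That term is the full difference between the dye orientations. In that reading it would be 2 times the log2 ratio between the sexes, so it is not on the scale of the mean. The rule found 89 probes at a mean of -0.3 or lower and 5 at -1 or lower, 41 to 148 without single arrays, 33 with its arrays centred (32 of the 38 among them) and 31 with them scaled (30 among them).

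Estimates near 0 changed sign. DAC007L19 was at -0.056 without the dye term, -0.077 with a strain term, -0.052 centred, -0.039 scaled and -0.13 with array weights, and from -0.15 to 0.25 without single arrays. DAC036J13 was at -0.29, -0.28 and -0.46 without the dye term, with a strain term and with array weights, and from -0.68 to 0.72 without single arrays. DAC010K23 was at 0.088 without the dye term and 0.0097 with array weights, and from -0.43 to 0.058 without single arrays. DAC019O06 was at 0.051 with a strain term and from -0.57 to 0.12 without single arrays. DAC030C15 was at 0.090 scaled and 0.024 with array weights, and from -0.39 to 0.38 without single arrays. DAC024D16 ran from -1.04 to 0.075 without single arrays, and DAC040K21 was at 0.18 without the dye term. The cause was not tested. No paired analysis was possible because the 5 arrays in the fit share only replicate number 1 between the strains. Pairing here means matching arrays of the strains by replicate number, which the sample titles give only as a label. Whether equal numbers mark related samples was not tested. The sexes are already compared within each array, because each ratio is between female and male RNA on the same array.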
